A study of Arabidopsis thaliana with 48 samples.

Results

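Expression was examined for 38 genes of Arabidopsis thaliana whose symbol begins as a cytochrome P450 (CYP and a number) or as a glutathione S-transferase (GST, a class letter and a number), among 13356 genes with a probe set of their own on the ATH1 array. GSTU25 was left out, and every other probe set whose gene has such a symbol was taken, whatever its signal. Of the 38 genes, 24 are P450 genes, 1 of which has a symbol that marks a pseudogene (CYP71B30P), and 12 are glutathione S-transferase genes. The remaining 2, CYP59 and CYP71, carry a matching symbol but are the genes of cyclophilin 59 and cyclophilin 71 in RefSeq, protein-folding enzymes that are not P450s. RefSeq lists 288 genes with such symbols, so the 38 are a part of both families. The rule uses symbols and no measured value.

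Cytochrome P450s are haem enzymes, mostly anchored in the endoplasmic reticulum, that use electrons passed on by NADPH-P450 reductase to insert an oxygen atom into a substrate. Plants use them to make lignin precursors, sterols, hormones and defence compounds, and the CYP71B subfamily, to which most of the P450 genes here belong, has grown in Arabidopsis by tandem duplication, with few functions assigned. Glutathione S-transferases join glutathione to reactive molecules or act as peroxidases and carriers, and the conjugates are moved into the vacuole by ABCC transporters. The tau (GSTU) and phi (GSTF) classes are the large plant classes, and lambda enzymes (GSTL) have thiol transferase activity.

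Seedlings of Col-0 were grown for 94 h in darkness at 22 °C and then given 1 of 7 light treatments or kept dark, and were harvested 45 min or 4 h after light onset. Continuous light was far-red (715 nm), red (650 nm), blue (453 nm) or white, each at 10 µmol per m2 and s. The pulses were red for 1 min at 50 µmol per m2 and s (650 nm), UV-A for 5 min at 7 W per m2 (cut-off 327 nm), and UV-A with UV-B for 5 min (UV-A/B). For UV-A/B, 7 W per m2 and a cut-off of 307 nm are stated for 1 array alone, replicate 2 at 45 min, whose labels conflict. Each of the 16 groups, the 7 treatments and darkness at both harvests, has 3 arrays of material that was mainly hypocotyl and cotyledons. The labels do not say whether the 3 came from separate cultures, so the p-values reflect how far these arrays scatter, possibly for technical reasons alone. The small number of arrays limits the precision.

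Across probe sets, which are not independent, replicate arrays had correlations of 0.9504 to 0.9804. All 7 measured photosynthetic marker genes (RCA, LHCB4.1, LHCB4.2, LHCB4.3, PSAE-1, PSAN and PORB) lay above the array's 40th percentile in 48 of 48 arrays, the root hair gene EXPA7 in 0 and EXPA18 in 25. The labels of 3 arrays conflict. UV-A/B 45 min replicate 2 is described as dark in 1 field, and dark 4 h replicate 1 lists another germination light. In the third, far-red 45 min replicate 2, just the number is unclear, because its title also holds a 1. Results that depend on any 1 of them are given with and without it.

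Signals are linear MAS5 intensities. Changes are log2 differences of signal + 1, light minus dark, with their standard error. They were tested with limma, and p-values were adjusted by Benjamini-Hochberg over the 15777 probe sets tested. Called changes have an adjusted p under 0.05, and arrays named as left out were left out singly. Signals of different probe sets are not compared with each other, because probes differ in brightness.

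Many of the 38 genes gave little signal in etiolated or briefly lit seedlings. A probe set was tested where it lay above the array's 40th percentile (a signal of 24.3 to 30.1) in at least 3 arrays, and 23 of the 38 passed (60.5%), against 69.4% of all probe sets. The 23 are 13 P450 genes, 9 glutathione S-transferase genes and the cyclophilin CYP71. Of the 23, 15 were above the percentile in 48 of 48 arrays and 6 in fewer than 20 (GSTU28 in 18, CYP51G2 in 13, CYP71B26 in 9, CYP71B35 and CYP71B38 in 4 each, CYP78A9 in 3). The 15 genes that were not tested are 11 P450 genes, 3 tau class genes and CYP59, of which 14 were above the percentile in no array. Just outside the filter, CYP71B27 passed in 1 array and reached a signal of 33.9, and just inside it CYP78A9 ranged over the 48 arrays from 4.5 to 39.9.

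Neighbouring genes on a chromosome differed in whether they lay above the array's 40th percentile. With at most 5 genes between them in the RefSeq annotation (TAIR10.1), 25 of the 38 genes lie in 7 runs. On chromosome 1, GSTU22 and GSTU20 were above the 40th percentile in 48 of 48 arrays, while GSTU23 and GSTU21 beside them were in 0. The run of CYP71B16, CYP71B21, CYP71B22, CYP71B23 and CYP71B24 on chromosome 3 had 1 tested gene, CYP71B23, which was above it in 48 arrays.

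Nearby on chromosome 3 the run of CYP71B25, CYP71B26, CYP71B34, CYP71B35, CYP71B36 and CYP71B37 had 4 tested genes, of which CYP71B34 passed in 48 arrays and CYP71B37 in 42. CYP71B5 passed in 48 arrays, and CYP71B30P and CYP71B31 beside it in 0. GSTU16 passed in 48 arrays and its neighbour GSTU15 in 0, and CYP71B28 and CYP71B29 each passed in 48 arrays, against 1 for their neighbour CYP71B27. These are statements about each probe set and its own arrays: a low signal can come from the gene or from the probes. All 38 probe sets have the plain name that the array's maker gives to sets designed for 1 transcript, and whether near-identical copies share signal was not tested.

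**Figure D1:**
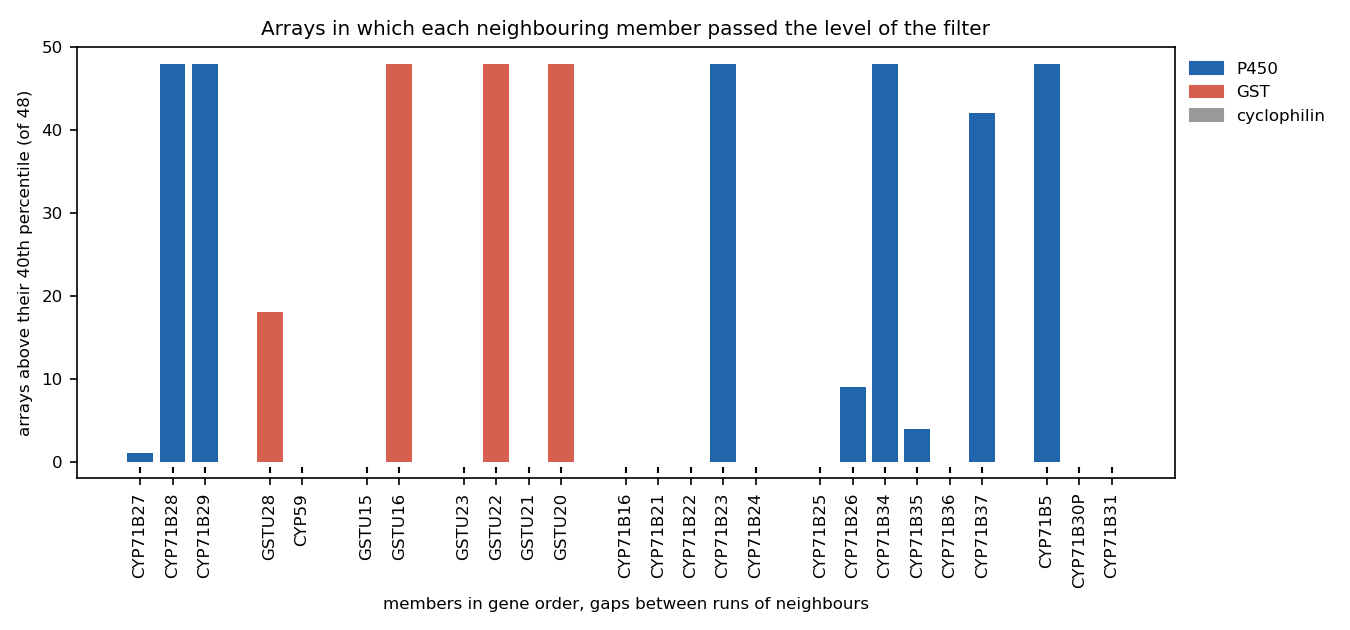
Number of the 48 arrays (vertical axis) in which each of the 25 members that lie in runs of neighbours was above its array's 40th percentile, in gene order (horizontal axis), with bars coloured by kind of gene and a small tick under every gene, so that a gene without a bar stands at 0. Genes at 48 arrays and genes at 0 stand side by side in most runs.

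After 45 min of light few of these genes differed from darkness. None of the 23 was called by limma in far-red light (2 had an unadjusted p under 0.05), after the red pulse (0), in red light (2) or in white light (2). The share of all probe sets that limma called was 2.09% in far-red light, 2.21% after the red pulse, 2.33% in red light and 3.3% in white light. In blue light 1 of 23 was called (4.35%), against 4.08% of all probe sets. After UV-A 1 of 23 was called, against 5.7% of all probe sets, and after UV-A/B likewise 1, against 9.04%. The replicate numbers of the labels paired the arrays in these last 2 comparisons, and with the number as a block 2 genes were called after UV-A and 3 after UV-A/B.

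After 4 h the counts differed widely between treatments, as they did over all probe sets. In far-red light 7 of 23 members were higher than in darkness and none lower (30.4% called, against 29.1% of all probe sets called and 13.6% called higher). Of these, CYP71B37 and GSTL3 were both lost without dark 4 h replicate 1, whose labels conflict, or without far-red 4 h replicate 2 or 3. In blue light 8 were higher and none lower (34.8%, against 26.4% of all called and 12.8% called higher). The blue count was 5 without blue 4 h replicate 3 or dark 4 h replicate 1, and 4 when UV-A/B 45 min replicate 2 and dark 4 h replicate 1 were both left out. In white light 3 were higher (13%, against 21.3% called and 11% called higher), and in red light 2 (8.7%, against 16.1% and 8.49%), or 1 without red 4 h replicate 1 or 3.

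After UV-A/B 4 members were higher and 2 lower (26.1%), against 22.4% of all probe sets called, 10.9% called higher and 11.4% called lower. A fit on the UV-A/B and dark arrays alone kept 3 of the 6, without CYP84A4, GSTF4 and GSTU27. Without dark 4 h replicate 1, an array with conflicting labels, CYP84A4 and GSTU27 were lost. GSTF4 and GSTU27 were lost without UV-A/B 4 h replicate 1 or dark 4 h replicate 3, and GSTF4 and GSTU22 without dark 4 h replicate 2. Leaving out UV-A/B 4 h replicate 3 ended the calls of CYP84A4 and GSTU22 and added GSTU26. Leaving out UV-A/B 4 h replicate 2 ended the call of GSTU27 and added CYP71B5. No member was called at 4 h after the red pulse (2 with an unadjusted p under 0.05) or after UV-A (3), where limma called 2.73% and 4.7% of all probe sets. With all arrays kept, the total share of members called in far-red light and after UV-A/B was thus close to that of all probe sets. The dark groups of both harvests gave 0 called members (1 with an unadjusted p under 0.05), against 0.0317% of all probe sets.

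**Figure D2:**
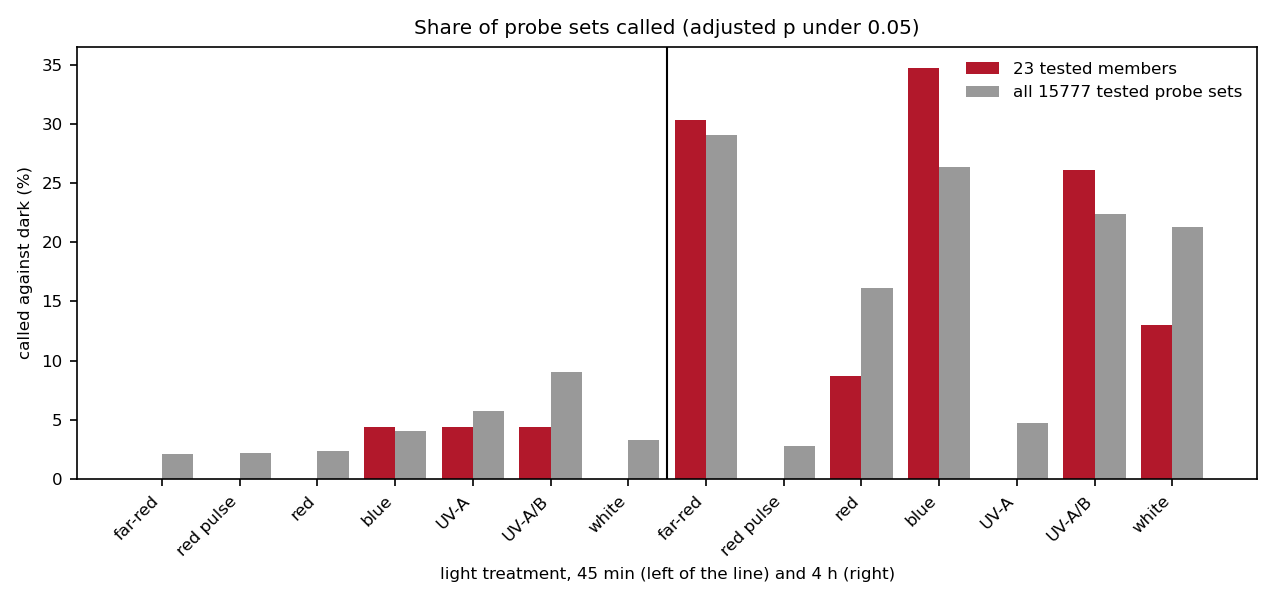
Share of the 23 tested members and of all 15777 tested probe sets called against darkness (vertical axis, percent) in each light treatment (horizontal axis), 45 min left of the line and 4 h right of it. Blue light at 4 h has the largest member share, 34.8%, and the red pulse and UV-A at 4 h have none.

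At 4 h 11 of the 23 tested members were called in at least 1 treatment, against 42.2% of all probe sets. Of the 9 tested transferase genes 8 were among them, 6 higher and 2 lower, and GSTU26 was called in none. Among the 13 tested P450 genes 3 were called at 4 h, all higher (CYP84A4, CYP71B5 and CYP71B37). At 45 min GSTU16 and CYP71B34 were the members called in at least 1 treatment, against 11.8% of all probe sets. Over both harvests 12 of the 23 were called at least once, against 45.3% of all probe sets. No gene was called higher in 1 treatment and lower in another, and the difference between the families was not tested. The 14 comparisons share their dark arrays within a harvest, so calls in several treatments are not independent of each other.

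**Figure D3:**
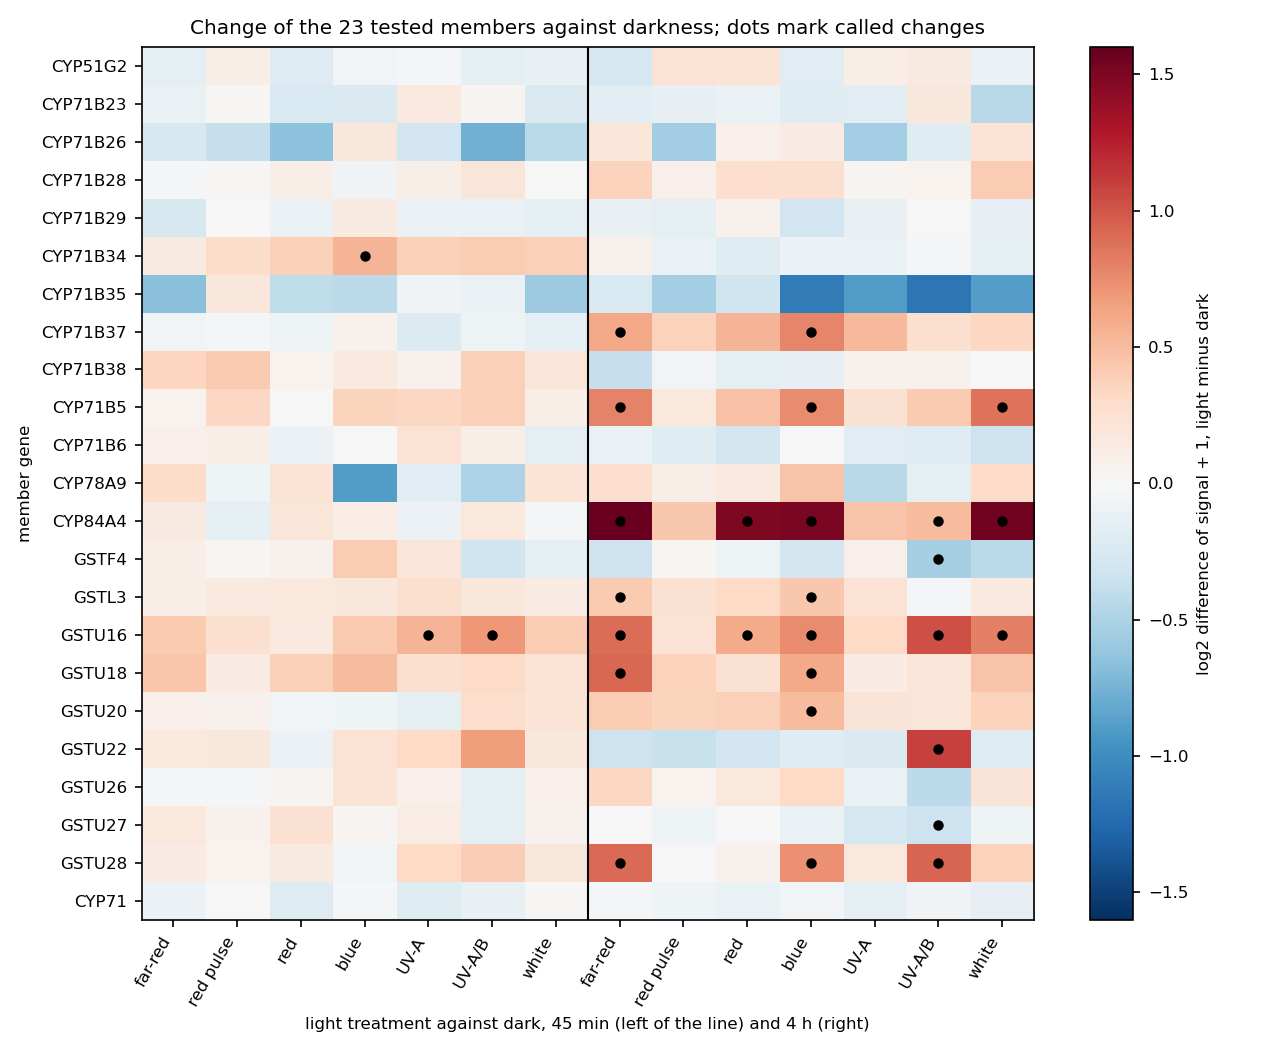
Log2 difference of signal + 1, light minus dark (colour, red higher in light and blue lower), of the 23 tested members (rows: P450 genes, then transferases, then the cyclophilin CYP71) in the 14 comparisons (columns, 45 min left of the line, 4 h right of it), with dots on called changes. The row of CYP84A4 is near 0 at 45 min and reaches 1.58 at 4 h, and CYP71B35 has the strongest blue cells without a call.

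CYP84A4 had the largest change of all members. It is a relative of ferulate 5-hydroxylase (CYP84A1) that acts in the synthesis of arabidopyrones, alpha-pyrone compounds made from phenylpropanoid precursors. At 4 h its signal in the 3 arrays was 157.8, 171.2 and 199.9 in far-red light and 142.5, 163.8 and 191 in red light, against 51.5, 58.1 and 64.9 in darkness. In blue light it was 150.8, 174.7 and 172.8, and in white light 177.1, 163.5 and 170.2. All 12 arrays in continuous light thus lay above all 3 dark arrays with a wide gap.

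The corresponding log2 changes of CYP84A4 were 1.58 ± 0.14 in far-red light (adjusted p = 1.31e-11) and 1.49 ± 0.14 in red light (adjusted p = 2.96e-10). In blue light the change was 1.50 ± 0.14 (adjusted p = 7.45e-11) and in white light 1.54 ± 0.14 (adjusted p = 6.78e-11). Differences between the continuous lights were small beside these changes: the 95% interval of its log2 difference was -0.20 to 0.38 for far-red against red light, -0.28 to 0.30 for blue against red light and -0.25 to 0.33 for white against blue light, and none of these was called. In material that was mainly hypocotyl and cotyledons, more cells of a type and more transcript per cell cannot be told apart.

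Pulses left CYP84A4 much closer to its dark level. At 4 h its signal was 77.9, 75 and 83.5 after the red pulse, 61, 81.9 and 100.5 after UV-A and 74.8, 70.9 and 106.9 after UV-A/B. Arrays after the red pulse and after UV-A/B lay above the 3 dark arrays, and those after UV-A overlapped them. The UV-A/B change of 0.51 ± 0.14 was called (adjusted p = 0.00831), but not once replicate 3 of UV-A/B 4 h was left out (adjusted p = 0.124), or dark 4 h replicate 1, an array with conflicting labels (0.0617). The changes after the red pulse (0.44 ± 0.14, adjusted p = 0.109) and after UV-A (0.45 ± 0.14, adjusted p = 0.0638) were not called. The UV-A change was called without UV-A 4 h replicate 1 (adjusted p = 0.0085) and with a filter at the 60th percentile (0.0485). With the replicate number as a block both were called (adjusted p = 0.0401 after the red pulse and 0.0228 after UV-A). In these comparisons the numbers do not pair all arrays.

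Continuous red light gave more CYP84A4 signal than the red pulse, with a log2 difference of 1.05 ± 0.14 (adjusted p = 2.35e-06) and no overlap of the arrays. It was the only member called in that comparison, in which 4.09% of all probe sets were called. At 45 min the changes of CYP84A4 lay between -0.14 (red pulse) and 0.19 (red light), and none was called. Its 4 h effect exceeded its 45 min effect by 1.44 ± 0.20 in far-red light (adjusted p = 1.38e-06), 1.30 ± 0.20 in red light (2.97e-05), 1.38 ± 0.20 in blue light (5.38e-06) and 1.57 ± 0.20 in white light (7.02e-07). The 8 tested genes that serve as pathway partners include 3 of the phenylpropanoid and flavonoid pathway, HCT, CCOAMT and DFR, of which DFR alone was called, and in far-red light alone.

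**Figure D4:**
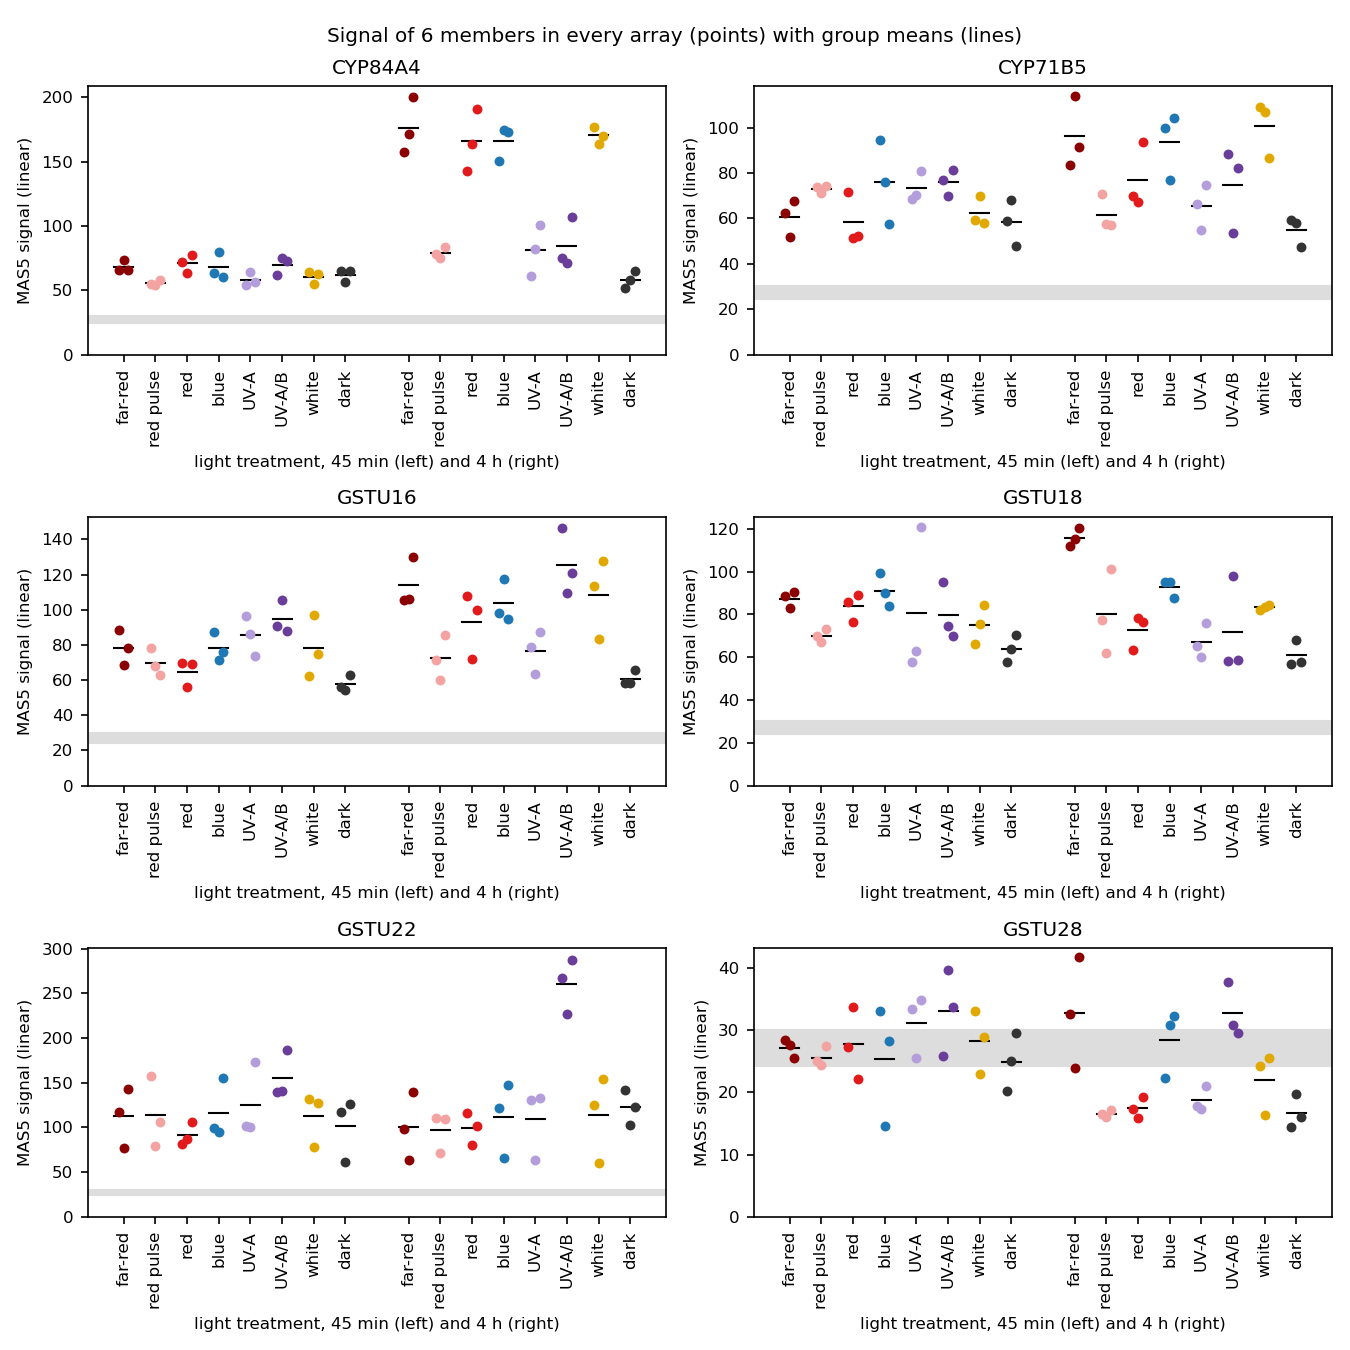
MAS5 signal (vertical axis, linear, starting at 0) of 6 members in each of the 48 arrays (points), by light treatment with darkness at the right end of each harvest (horizontal axis, 45 min left, 4 h right), with group means as lines and the range of the arrays' 40th percentiles, 24.3 to 30.1, as a grey band. CYP84A4 separates the continuous lights from the pulses and darkness at 4 h, and GSTU22 stands out after UV-A/B at 4 h, where its 3 arrays lie between 227.2 and 287.8.

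CYP71B5, a P450 with no function assigned here, was higher in 3 of the 4 continuous lights at 4 h. Its signal was 83.3, 113.8 and 91.3 in far-red light, 100, 76.7 and 104.4 in blue light and 108.9, 107 and 86.7 in white light, against 59.2, 57.8 and 47.5 in darkness. Each light array lay above each dark array. The log2 change was 0.79 ± 0.18 in far-red light (adjusted p = 0.000623), 0.76 ± 0.18 in blue light (0.0012) and 0.87 ± 0.18 in white light (0.000305), and no left-out array ended these calls.

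In red light CYP71B5 had a change of 0.47 ± 0.18 that was not called (adjusted p = 0.0729), and the difference between far-red and red light, 0.33 ± 0.18, was not called either. After UV-A/B its change was 0.41 ± 0.18 (adjusted p = 0.0967), and it was called only when replicate 2 of UV-A/B 4 h was left out (adjusted p = 0.0144). At 45 min in far-red light its arrays (62.3, 51.6 and 67.8) overlapped those in darkness (58.9, 68.3 and 48). The far-red effect at 4 h exceeded that at 45 min by 0.74 ± 0.25 (adjusted p = 0.0441), a call lost without any 1 of 8 arrays: replicate 2 or 3 of far-red 4 h, replicate 1 or 2 of far-red 45 min, replicate 2 or 3 of dark 4 h, or replicate 1 or 2 of dark 45 min (adjusted p between 0.0525 and 0.14).

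CYP71B37, also without an assigned function here, was higher in blue and far-red light at 4 h. The 3 signals were 46.6, 51.3 and 37.4 in blue light and 34.7, 45.2 and 39.2 in far-red light, against 20.5, 26.5 and 31.1 in darkness, so that neither light group overlapped darkness, where the signal lay near the level of the filter. In blue light the change was 0.78 ± 0.23 (adjusted p = 0.00867), and in far-red light it was 0.60 ± 0.23 (adjusted p = 0.0431). The blue call was lost without blue 4 h replicate 2 (adjusted p = 0.0509) or dark 4 h replicate 1 (0.0737). Without dark 4 h replicate 1 or 2 or far-red 4 h replicate 2 or 3 the far-red call was lost (adjusted p between 0.0743 and 0.217). It was also lost without a filter on low values (0.0652) and with quantile normalization (0.0762).

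CYP71B34, a neighbour of CYP71B37 in the same run, was called at 45 min instead. In blue light its signal was 418.1, 322.4 and 386, against 263.2, 231.9 and 276 in darkness, with no overlap and a change of 0.54 ± 0.15 (adjusted p = 0.0283). That call was lost without replicate 1 or 3 of blue 45 min or replicate 1 or 2 of dark 45 min (adjusted p between 0.0618 and 0.182), and in a fit on these groups alone (0.0605). By 4 h the arrays in blue light (258.9, 230.2 and 318.2) overlapped those in darkness (298.2, 266.8 and 288).

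The blue effect on CYP71B34 was lower at 4 h than at 45 min by a log2 difference of -0.63 ± 0.21 (adjusted p = 0.0487). It was not called without any 1 of replicate 1 or 2 of blue 4 h, 1 or 3 of blue 45 min, 1, 2 or 3 of dark 4 h, or 1 or 2 of dark 45 min (adjusted p between 0.053 and 0.15). After UV-A and UV-A/B at 45 min CYP71B34 had log2 differences of 0.39 and 0.41 from darkness without a call. With the replicate number as a block, which paired the arrays there, both were called (adjusted p = 0.0322 after UV-A and 0.0171 after UV-A/B). Replicate 2 gave the lowest signal of this gene in 11 of the 16 groups.

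The other tested P450 genes gave no call against darkness, and CYP51G2, CYP71B23, CYP71B26, CYP71B28, CYP71B29, CYP71B35 and CYP71B38 are named after their values were seen. CYP71B6, which turns indole-3-acetonitrile into indole carboxylic acid and its aldehyde, had changes between -0.33 (white light, 4 h) and 0.24 (UV-A, 45 min). CYP51G2, a relative of the sterol demethylase CYP51G1, stayed between -0.27 and 0.24. CYP71B23, CYP71B28, CYP71B29 and CYP71B38 had changes between -0.44 and 0.42. CYP71B28 was called in white light at 4 h only without dark 4 h replicate 2 (adjusted p = 0.0435).

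The largest uncalled differences belonged to genes near the level of the filter. CYP71B35, whose array values lie outside the naming rule, had 13.7, 4.8 and 12 after UV-A/B at 4 h, against 26.9, 23.3 and 17.2 in darkness, a log2 difference of -1.16 ± 0.55 (adjusted p = 0.134) with no overlap of the arrays. Its signal was above the array's 40th percentile in just 4 arrays, and its standard error is the widest given here. CYP78A9, of the CYP78A group of growth regulators, differed by -0.90 ± 0.39 in blue light at 45 min (adjusted p = 0.316), and CYP71B26 by -0.77 ± 0.40 after UV-A/B at 45 min (0.27). CYP79A2, which makes phenylacetaldoxime for benzylglucosinolate, and CYP71B31 were below the percentile in all 48 arrays, with highest signals of 2.6 and 11.9.

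Among the tau class transferases GSTU16 responded in the most treatments. At 4 h its signal was 105.7, 106.1 and 129.8 in far-red light, 98.4, 117.6 and 95 in blue light and 113.6, 83.2 and 127.8 in white light, against 58.1, 58.3 and 65.8 in darkness. It was 146.6, 109.5 and 121 after UV-A/B and 107.9, 72.1 and 99.9 in red light. No array of these 5 groups overlapped the dark arrays, and the lowest of them was red light replicate 2.

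For GSTU16 the log2 change at 4 h was 1.03 ± 0.17 after UV-A/B (adjusted p = 9.38e-06), 0.89 ± 0.17 in far-red light (5.02e-05), 0.80 ± 0.17 in white light (0.000324) and 0.76 ± 0.17 in blue light (0.00051). Leaving out single arrays ended none of these 4 calls. The change in red light, 0.59 ± 0.17 (adjusted p = 0.0106), was lost without red 4 h replicate 1 (0.0865) or 3 (0.055). Changes after the red pulse (0.24 ± 0.17) and UV-A (0.32 ± 0.17) were not called, with 95% intervals from -0.10 to 0.58 and from -0.02 to 0.66.

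GSTU16 was also the only transferase called at 45 min. After UV-A/B its signal was 90.6, 105.7 and 87.8, and after UV-A it was 96.3, 86.2 and 73.9, against 56.2, 54.5 and 63.1 in darkness, without overlap. The UV-A/B change was 0.70 ± 0.17 (adjusted p = 0.00376), and it did not depend on any left-out array, UV-A/B 45 min replicate 2 with its conflicting labels among them. The UV-A change was 0.55 ± 0.17 (adjusted p = 0.0422), and it was lost without UV-A 45 min replicate 1 or 2 or dark 45 min replicate 1 or 2 (adjusted p between 0.111 and 0.195). In the other 5 treatments at 45 min the gene's changes lay between 0.16 and 0.42, and none was called.

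GSTU22 was called after UV-A/B at 4 h and in no other treatment. Its signal was 267.2, 227.2 and 287.8 after UV-A/B, against 141.5, 102.7 and 123.1 in darkness. After UV-A alone it was 130.6, 63.4 and 132.6. The UV-A/B arrays thus lay above every other array of the gene in the series, the highest of which, UV-A/B 45 min replicate 3, was at 186.8.

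Against darkness the change of GSTU22 was 1.09 ± 0.34 (adjusted p = 0.0164), lost when replicate 3 of UV-A/B 4 h (0.0545) or replicate 2 of dark 4 h (0.0726) was left out. Against UV-A it was 1.32 ± 0.34 (adjusted p = 0.00802), lost without UV-A 4 h replicate 2 (0.101). In the other 6 treatments at 4 h its changes lay between -0.35 and -0.20, and none was called.

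The signal of GSTU22 moved with the replicate number: replicate 2 was the lowest of its group in 14 of 16 groups. Within the numbers 1, 2 and 3 the UV-A/B against dark difference at 4 h was 0.91, 1.14 and 1.22. At 45 min after UV-A/B the change was 0.67 ± 0.34 and not called (adjusted p = 0.268), with 140, 140.3 and 186.8 against 117, 61.2 and 126 in darkness. With the number as a block it was called (adjusted p = 0.0182), and the differences within the numbers were 0.26, 1.18 and 0.56. What the number stands for is not stated in the labels, and the part it plays was not tested beyond the block. GSTU20, in the same run of neighbours, had a change after UV-A/B at 4 h of 0.20 ± 0.17 (adjusted p = 0.458) and was not called.

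GSTU28 was higher in far-red light, after UV-A/B and in blue light at 4 h. Its signal was 32.6, 23.9 and 41.9 in far-red light, 37.8, 30.9 and 29.6 after UV-A/B and 22.4, 30.8 and 32.4 in blue light, against 14.4, 19.7 and 16.1 in darkness. The dark arrays were all below the 40th percentile, so the gene passed the filter through other groups. The change was 0.91 ± 0.23 in far-red light (adjusted p = 0.00222), 0.93 ± 0.23 after UV-A/B (0.00246) and 0.73 ± 0.23 in blue light (0.0155). Without blue 4 h replicate 2 or 3 or dark 4 h replicate 1 the blue call was lost (adjusted p between 0.0616 and 0.0772).

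The highest group mean of GSTU28, 33.1, was that after UV-A/B at 45 min, where the gene was not called against darkness. Its dark signal was compared between the harvests too. At 4 h its dark arrays lay below the dark arrays of 45 min, which had 20.3, 25 and 29.6, with a log2 difference of -0.55 ± 0.23 that was not called (unadjusted p = 0.0238, adjusted p = 0.475). The signal at 4 h was also low in red light (17.4, 15.9 and 19.3) and after the red pulse (16.5, 16 and 17.2). Against red light the gene was higher in far-red light by 0.84 ± 0.23 (adjusted p = 0.0164), a call that did not survive the loss of replicate 1 or 3 of far-red 4 h, or of replicate 1 or 2 of red 4 h (adjusted p between 0.0505 and 0.16).

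GSTU18 had its highest group mean in far-red light at 4 h. Its signal at 4 h was 112, 115.1 and 120.5 in far-red light and 95, 95.3 and 87.8 in blue light, against 56.9, 68.2 and 57.6 in darkness, and the 3 groups did not overlap. The far-red change was 0.92 ± 0.18 (adjusted p = 0.000116), and the blue change was 0.60 ± 0.18 (adjusted p = 0.0115). The blue call was lost when UV-A/B 45 min replicate 2 and dark 4 h replicate 1 were both left out (adjusted p = 0.0516), although no left-out array alone ended it. In white light at 4 h the change of 0.45 was not called, but it was in a fit on these groups alone (adjusted p = 0.0187). Red light gave 63.2, 78.1 and 76.3, and far-red light exceeded it by 0.67 ± 0.18 (adjusted p = 0.0143), a call lost without far-red 4 h replicate 3 (0.0621) or red 4 h replicate 1 (0.0994).

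GSTU20 is known as FIP1, a partner of the jasmonate-conjugating enzyme FIN219/JAR1 in far-red light signalling. It was called in blue light at 4 h, with 101.3, 84.5 and 100.1 against 71.3, 79.6 and 52.4 in darkness, a change of 0.50 ± 0.17 (adjusted p = 0.0251). The call was lost without blue 4 h replicate 1 or 3 or dark 4 h replicate 3 (adjusted p between 0.0813 and 0.224). In far-red light it had 86.1, 95.1 and 84.9 and a change of 0.40 ± 0.17 that was not called (adjusted p = 0.0748). Of the arrays left out, dark 4 h replicate 2 was the only one whose loss gave a call (0.035). The arrays in far-red light lay above those in darkness at 4 h.

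GSTL3, of the lambda class, changed by less. In blue light it averaged 204 ± 15.1 and in far-red light 202 ± 16.9, against 152 ± 23 in darkness (SD, n = 3 arrays each). Its changes were 0.43 ± 0.15 in blue light (adjusted p = 0.0269) and 0.42 ± 0.15 in far-red light (adjusted p = 0.0289). Dark 4 h replicate 1, which has conflicting labels, was the lowest dark array at 125.2, and without it the calls were lost (adjusted p = 0.202 in blue light and 0.209 in far-red light). They were lost as well without blue 4 h replicate 1 or 3 (adjusted p = 0.1 and 0.0711) or far-red 4 h replicate 2 or 3 (0.0732 and 0.111).

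The called falls were those of GSTF4 and GSTU27, both after UV-A/B at 4 h. GSTF4, of the phi class, had 18.4, 31.7 and 32.1 after UV-A/B, against 33.3, 39.9 and 44.3 in darkness and 37.5, 42.8 and 44 after UV-A. UV-A/B replicate 1 lay well below the other arrays, and the groups did not overlap. The change against darkness was -0.53 ± 0.20 (adjusted p = 0.0488) and that against UV-A was -0.62 ± 0.20 (adjusted p = 0.0428).

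Without UV-A/B 4 h replicate 1 the change of GSTF4 was -0.28 against darkness (adjusted p = 0.383) and -0.36 against UV-A (0.366). The call against darkness was also lost without dark 4 h replicate 2 or 3 (adjusted p = 0.111 and 0.185), and the call against UV-A without any UV-A 4 h array (between 0.0554 and 0.132). GSTU27, of the tau class, averaged 176 ± 18.2 after UV-A/B and 222 ± 17.3 in darkness (SD, n = 3 arrays each), a change of -0.33 ± 0.12 (adjusted p = 0.0407). Leaving out replicate 1 or 2 of UV-A/B 4 h, or replicate 1 or 3 of dark 4 h, ended that call (adjusted p between 0.0822 and 0.194). Neither the fall of GSTF4 nor that of GSTU27 was called without a filter on low values (adjusted p = 0.0731 and 0.0508 against darkness).

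GSTU26, named after its values were seen, was not called in any treatment in the fit over all groups. After UV-A/B at 4 h it had 340.2, 228.3 and 402, against 398, 424.1 and 447.2 in darkness, with overlapping arrays and a change of -0.42 ± 0.16 (adjusted p = 0.0547). With the replicate number as a block, which paired these arrays, it was called lower (adjusted p = 0.00362), as it was when replicate 3 of UV-A/B 4 h was left out (0.00943), with quantile normalization (0.0361) and with a filter at the 60th percentile (0.0433). Within the numbers 1, 2 and 3 the difference was -0.23, -0.89 and -0.15. In a fit on the groups compared alone GSTU26 was called higher at 4 h in far-red light (0.33, adjusted p = 0.0134) and in blue light (0.32, adjusted p = 0.0352). The cyclophilin gene CYP71 was called in no comparison with darkness, with changes between -0.21 and 0.01.

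The UV-A/B pulse also holds UV-B, and its intensity and cut-off are labelled for 1 array alone, UV-A/B 45 min replicate 2, whose labels conflict. Whether both pulses matched in intensity is therefore not known for the other arrays. Between the pulses 4 members were called at 4 h, against 8.74% of all probe sets. The count was 1 without UV-A 4 h replicate 2, and 2 without UV-A 4 h replicate 1 or UV-A/B 4 h replicate 1. In a fit on these groups alone it was 1 (GSTU22). GSTU22, GSTU28 and GSTU16 were higher after UV-A/B and GSTF4 was lower. GSTU16 exceeded its UV-A signal (78.9, 63.4 and 87.6) by 0.71 ± 0.17 (adjusted p = 0.00369), and no left-out array ended that call, though the fit on these groups alone did (0.0676). GSTU28, with 17.9, 17.3 and 21.1 after UV-A, was higher after UV-A/B by 0.77 ± 0.23 (adjusted p = 0.028), a call lost without replicate 1 or 2 of either group (adjusted p between 0.0581 and 0.134). All 4 are transferases, and no P450 gene was called. CYP84A4 differed by 0.06 ± 0.14 between the pulses, with a 95% interval from -0.24 to 0.35.

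At 45 min no member was called between UV-A/B and UV-A (3 with an unadjusted p under 0.05, and 2.16% of all probe sets called by limma). GSTU20 was called there only without UV-A 45 min replicate 2, at 0.72 (adjusted p = 0.00894). Between far-red and red light at 4 h, GSTU18 and GSTU28 were called, both higher in far-red light, against 7.33% of all probe sets. Neither was called without far-red 4 h replicate 3 or red 4 h replicate 1, and 1 was called without far-red 4 h replicate 1 or red 4 h replicate 2, or in a fit on these groups alone. No member was called between blue and red light (2 with an unadjusted p under 0.05, 4.15% of all probe sets) or between white and blue light (0, and 0.456%).

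Whether an effect differed between the harvests was tested as the 4 h effect minus the 45 min effect. By limma 2 of 23 members were called in far-red light (15% of all probe sets), 1 in red light (6.8%), 2 in blue light (11.4%) and 1 in white light (8.73%). After the red pulse no member was called (1 with an unadjusted p under 0.05, 1.72% of all probe sets), nor after UV-A (4 members, 4.17%) or UV-A/B (0 members, 10%). The called ones are CYP84A4 in the 4 continuous lights, CYP71B5 in far-red light and CYP71B34 in blue light. In white light CYP71B5 had 0.76 ± 0.25 and missed the threshold (adjusted p = 0.0541), and in red and white light CYP71B34 had -0.57 ± 0.21 (0.106) and -0.52 ± 0.21 (0.141). For the transferases, whose calls were mostly made at 4 h alone, no difference between the harvests was called with all arrays kept. GSTU28 was called in blue light without blue 45 min replicate 1 (adjusted p = 0.0499) and in far-red light without far-red 4 h replicate 2 (0.0491). For GSTU22 after UV-A/B the difference was 0.42 ± 0.48.

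Pathway genes that work beside these enzymes could be read for 8 genes. Over their 112 comparisons with darkness 6 were called higher and 3 lower, and none reached a log2 change of 1. All of these calls were at 4 h, in far-red light (29.1% of all probe sets called), blue light (26.4%), after UV-A/B (22.4%) or after the red pulse (2.73%). DFR of the flavonoid pathway rose by 0.73 in far-red light at 4 h, and GR, a glutathione reductase, by 0.40. UGT74B1 of glucosinolate synthesis was higher at 4 h in far-red light (0.49), in blue light (0.59), after UV-A/B (0.59) and after the red pulse (0.76). GLY2 and GLX2-1 are glyoxalase II genes. GLY2 was lower in far-red (-0.45) and blue light (-0.48), and GLX2-1 after UV-A/B (-0.28), all at 4 h. Genes of P450 reductases and of ABCC transporters were not analysed here.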

How the data were processed

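Gene expression was measured on 48 ATH1 arrays in 16 groups of 3. The authors deposited 1 linear intensity per probe set and array, and the submitters' processing notes name MAS5, with no version. The 2% trimmed mean of each array is between 99.4 and 99.5 in the values, and no further scaling was applied, so changes are relative to that level. Groups and replicate numbers come from the labels. Where labels conflict, titles were followed, and for far-red 45 min replicate 2, whose title holds both numbers, the one after REP was used.

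Probe sets were named from the given probe table and RefSeq symbols. Of 22746 probe sets without controls, only the 13513 that match 1 gene were named. A further 503 match several genes, and 8730 have no entry in the table. The members, gene lists, tests and alternatives were chosen with earlier results of these data known. Named genes are the called members of a contrast (at most 8 in each direction) and members of role lists with 6 or fewer measured genes. Values of every array are given for at most 10 P450 and 6 transferase genes with the largest called changes whose arrays do not overlap, and other names are said to have been chosen after their values were seen. Exceptions are GSTU26 and CYP71B35, with array values, and CYP51G2, CYP71B23, CYP71B26, CYP71B28, CYP71B29 and CYP71B38.

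A probe set had to exceed its array's 40th percentile in 3 or more arrays, which 15777 did. Log2(signal + 1) was fitted with limma 3.58.1 in R 4.3.3 (group means over all 48 arrays, eBayes with a trend), with 32 residual degrees of freedom and Benjamini-Hochberg adjustment in each of 28 contrasts. The pseudocount of 1 understates changes of low genes. Same-numbered arrays deviated together (every r over 0.1) in 9 contrasts between groups, among them the red pulse, red, blue, UV-A and UV-A/B against darkness at 45 min and UV-A/B against darkness at 4 h, where the number was taken to pair arrays. Alternatives were a pseudocount of 16, no filter, a 60th percentile filter, quantile normalization, the replicate block, a fit on the groups compared alone, no trend, leaving out each array, and leaving out both UV-A/B 45 min replicate 2 and dark 4 h replicate 1. Figures were drawn with matplotlib 3.10.9.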

Additional observations from a re-analysis of the deposited data

Results flagged for a closer look

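Some light effects differed between the harvests by limma's test of the 4 h effect minus the 45 min effect. Of the 23 tested members, 2 were called in far-red light, 1 in red light, 2 in blue light and 1 in white light. Over all probe sets the shares called were 15%, 6.8%, 11.4% and 8.73% in the same order. For CYP84A4 the difference of effects was 1.44 in far-red light, 1.30 in red light, 1.38 in blue light and 1.57 in white light (log2). CYP71B5 had 0.74 in far-red light (adjusted p = 0.0441), and CYP71B34 had -0.63 in blue light (0.0487). Of 20 alternative settings, 10 ended this call of CYP71B5 and 13 this call of CYP71B34, while 0 ended those of CYP84A4. Some differences were called under other settings alone. CYP71B5 in white light (0.76, adjusted p = 0.0541) was called with the 60th percentile filter (0.0422), in a fit on the groups alone (0.049), with a pseudocount of 16 (0.047) and without any 1 of dark 45 min replicate 3, white 4 h replicate 3 or white 45 min replicate 2 (adjusted p between 0.027 and 0.0428). CYP71B34 was called in red light (-0.57, adjusted p = 0.106) without red 45 min replicate 2 (0.0492), and in white light (-0.52, adjusted p = 0.141) in a fit on the groups alone (0.0373). GSTU28 was called in blue light without blue 45 min replicate 1 (adjusted p = 0.0499) and in far-red light without far-red 4 h replicate 2 (0.0491). In blue light CYP71B37 was called without blue 45 min replicate 2 (0.0409), and after UV-A CYP84A4 without UV-A 4 h replicate 1 (0.0271).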

How the results depend on the processing

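No called change turned its direction under any alternative, and the calls of CYP84A4 in the 4 continuous lights, of CYP71B5 against darkness, of GSTU16 after UV-A/B at both harvests and in far-red, blue and white light, of GSTU18 in far-red light and of GSTU28 in far-red light and after UV-A/B against darkness at 4 h were kept under all alternatives that tested them. The 60th percentile filter left GSTU28, GSTF4 and CYP71B37 untested, so their calls have no value there. With the replicate block the count of called members was 1 (not 0) after UV-A and 1 after the red pulse at 4 h, 2 after UV-A and 3 after UV-A/B at 45 min, and for 4 h against 45 min effects 2 in red and 3 in white light. With it GSTU20 (adjusted p = 0.0379) and GSTU26 (0.0215) were called in far-red light and GSTU26 (0.028) in blue light at 4 h, and the differences of effects of CYP71B34 in red (0.0204) and white light (0.0315) and of CYP71B5 in white light (0.0348), comparisons in which the numbers do not pair all arrays. It ended no call, and where numbers pair the arrays it changed no call other than those printed beside the results. With a fit on the groups compared alone, counts were 0 for UV-A and 0 for blue light at 45 min, 3 for UV-A/B against darkness, 1 for UV-A/B against UV-A and 1 for far-red against red light at 4 h, and 3 for the white light difference of effects. The 60th percentile filter gave 1 after UV-A at 4 h, 2 for UV-A/B against UV-A at 4 h and 1 for far-red against red light, where the lost calls are those of untested genes, and 2 for the white light difference of effects. Without a filter the counts were 0 for UV-A at 45 min and 1 each for the blue and far-red differences of effects. Both called falls at 4 h were lost there too, GSTF4 (adjusted p = 0.0731 against darkness and 0.066 against UV-A) and GSTU27 (0.0508), as was CYP71B37 in far-red light (0.0652). A pseudocount of 16 gave 0 for UV-A at 45 min and 2 for the white light difference. It ended the calls of GSTF4 against darkness (adjusted p = 0.0594) and against UV-A (0.0512). Quantile normalization gave 1 each for the blue and far-red differences and ended the call of CYP71B37 in far-red light at 4 h (adjusted p = 0.0762). With eBayes without trend the blue difference had 1. Without both UV-A/B 45 min replicate 2 and dark 4 h replicate 1 blue light at 4 h had 4 called members (not 8), and its difference of effects 1.

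Leaving out single arrays, counts were 0 to 1 for UV-A against darkness at 45 min and at 4 h, for the UV-A difference of effects, for UV-A/B against UV-A at 45 min and for blue light at 45 min. They were 5 to 8 for blue light and 1 to 2 for red light at 4 h, 1 to 4 for UV-A/B against UV-A and 0 to 2 for far-red against red light. The far-red and UV-A/B counts against darkness at 4 h also lost calls, as given beside those counts. For the differences of effects they were 1 to 3 in blue light, and 1 to 2 in far-red, in red and in white light. Low signals limit the reading of the 6 members that passed the filter in fewer than 20 arrays, and the 15 members that were not tested have no call.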

Other observations

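Replicate number moved with the signal of several members beside GSTU22, a description across groups without a test. Replicate 2 was the lowest array for CYP71B23 in 13 of 16 groups, and replicate 3 was the highest for GSTU26 in 14 of 16. The cyclophilin gene CYP71 was highest in replicate 2 in 12 of 16 groups, and GSTU20 was lowest in replicate 3 in 12 of 16. Labels do not say what a replicate number marks.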
